A study of Homo sapiens with 6 samples.

Results

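Nucleic acid sensing and interferon signaling were examined through 33 genes, chosen by name for their known role, with earlier results of these data known. They were found as 33 rows among the 27918 rows of an expression table of HCT-116 cells. The rows of TLR9, IFNAR2, IRF9, IFIT2 and TRIM25 also hold neighboring genes. The 33 genes fall into 5 sensors (DDX58, IFIH1, DHX58, TLR3 and TLR9), 5 adaptors and kinases (MAVS, MYD88, TICAM1, TBK1 and IKBKE) and 3 interferon regulatory factors (IRF1, IRF3 and IRF7). A further 4 are interferon receptor or ISGF3 subunits (IFNAR1, IFNAR2, STAT2 and IRF9), and 16 are genes that interferon induces. After transfection of the CASC9 GapmeR, TBK1, the kinase on which several sensing routes converge, fell to 0.339 of its level in the control, and the interferon-induced gene IFI35 fell to 0.504. These 2 lower members made up 6.06% of the 33, near the 5.1% of all rows tested that were lower by the same adjusted test. Under 15 alternative ways of processing, TBK1 passed in 9 and IFI35 in 3. No sensor, regulatory factor or receptor subunit and none of the 15 other interferon-stimulated genes passed the adjusted test.

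Cells recognize foreign or displaced nucleic acids with receptors in the cytosol and in endosomes. RIG-I (gene DDX58) and MDA5 (IFIH1) bind double-stranded RNA and signal through MAVS on mitochondria, TLR3 binds double-stranded RNA in endosomes and signals through TICAM1 (TRIF), and TLR9 binds unmethylated CpG DNA and signals through MYD88. MAVS and TRIF activate the kinases TBK1 and IKKε (IKBKE), which phosphorylate IRF3 and IRF7, and these factors switch on type I interferon genes. Secreted interferon binds the IFNAR1 and IFNAR2 receptor and assembles the ISGF3 complex, which contains STAT2 and IRF9 and binds the interferon-stimulated response element in the promoters of interferon-stimulated genes. A GapmeR is itself a short synthetic DNA strand flanked by locked nucleic acid, which directs RNase H to cut the RNA it pairs with, so both groups of cells received a nucleic acid.

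The HCT-116 line was established from a human colorectal carcinoma. It was transfected with a control GapmeR (GapNC, 3 libraries) or with a GapmeR against all annotated variants of the long noncoding RNA CASC9 (GapC9, 3 libraries), at 10 nM with a cationic lipid, to find genes that depend on CASC9. Poly(A) RNA was sequenced from cells harvested 24 h or 48 h after transfection, both times being stated. Every library thus came from transfected cells, and untransfected cells were not analysed here. The labels do not say whether replicates were separate cultures, so the tests measure the spread between these libraries, which may be technical.

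The control GapmeR is printed because it is the nucleic acid that the reference group received. It has 16 bases joined by 15 phosphorothioate bonds, as has the GapmeR against CASC9, and neither holds a CG dinucleotide, the core of the motif that TLR9 recognizes.
Control GapmeR: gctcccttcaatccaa

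Promoter sequences of 27 of the 33 members were found in RefSeq (GRCh38.p14), each from 250 bases before to 50 after the transcription start. They were searched on both strands for the core of the interferon-stimulated response element, GAAANNGAAA or TTTCNNTTTC, and for the STAT site TTCNNNGAA, which reads the same on both strands. The first motif was found for 13 of the 27 members, among them 10 of 14 interferon-stimulated genes, and in 3.57% of all 35116 promoters. The STAT site was found for 8 of the 27 members and in 7.66% of all promoters. A member was counted if any of its promoters held the motif, and some had several, such as MX1 with 3 and IFIT3 with 2. The percentages count single promoters, so they are not in the same unit as the member counts. The promoters of TBK1, MAVS, TICAM1, IKBKE, TRIM25, DDX58, TLR9, IFNAR1, STAT2 and ADAR held neither motif. That of IFI35 held a STAT site that began 22 bases before the start but no response element. A match is a run of letters and not a measured binding site. The stretches below, of 60 bases each, upstream of the listed start and outside annotated exons, show the motif in genes that differed widely in level, from ISG15, the most abundant member, to IFI44, one of the lowest. Capitals mark the letters of a match. Those of ISG15 (chr1:1013362-1013421, plus strand) hold 2 overlapping matches, those of IFI6 (chr1:27672262-27672321, minus strand) and IFIT3 (chr10:89327833-89327892, plus strand) 2 separate ones, those of IFI27 (chr14:94110609-94110668, plus strand) 2 matches with an overlapping STAT site, and those of IFI44 (chr1:78649729-78649788, plus strand) 1 match.
ISG15: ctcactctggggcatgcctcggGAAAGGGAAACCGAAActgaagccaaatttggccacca
IFI6: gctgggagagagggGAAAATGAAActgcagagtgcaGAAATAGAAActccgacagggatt
IFIT3: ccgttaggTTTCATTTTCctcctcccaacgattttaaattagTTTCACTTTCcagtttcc
IFI27: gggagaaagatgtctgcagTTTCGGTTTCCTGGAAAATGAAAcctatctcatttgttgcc
IFI44: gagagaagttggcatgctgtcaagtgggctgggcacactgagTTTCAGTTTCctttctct

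Values are fragments per kilobase of transcript, scaled to the mapped fragments of a library (FPKM), which allow levels to be compared between genes. The smallest steps between values would correspond to 22750000 to 24380000 fragments per library if a step is 1 fragment. The level given for CASC9 was 0, 0.0108 and 0 FPKM in GapNC and 0.0528, 0.107 and 0 FPKM in GapC9, with no detectable difference (exact two-sided permutation test, p = 0.4, the smallest possible being 0.1), so its level does not check the group labels. The epithelial markers EPCAM, KRT8, KRT18, KRT19 and CDH1 were present at 8.43 FPKM or more in every library, while VIL1 and CDX1 did not exceed 0.0481 FPKM. Of the 5 immune cell markers in the table, PTPRC, CD14, LST1 and CD3E did not exceed 0.113 FPKM, and FCER1G was at 0.136 to 0.22 FPKM in GapNC and 0.822 to 1.19 FPKM in GapC9 (adjusted p in limma 0.0159). Its part in the results below was not tested. Of the 5 fibroblast and endothelial markers in the table, COL1A1 was at 1.06 to 1.54 FPKM and COL3A1 at 3.03 to 4.13 FPKM, and PDGFRB, PECAM1 and VWF did not exceed 0.0858 FPKM. GapNC replicate 1 stood apart in base composition: the rank correlation between transcript GC content and a library's deviation from the mean was 0.616 across 10117 rows, against -0.376 to 0.0287 in the other 5 libraries.

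All 33 members had a mean of at least 0.1 FPKM and so were among the rows tested. In limma with Benjamini-Hochberg adjustment over the 16028 rows, 0 of 33 members were higher in GapC9, against 1.89% of all rows, and 2 of 33 were lower (TBK1 and IFI35), against 5.1% of all rows. At an unadjusted p under 0.05, 2 members were higher (TLR3 and IFIT3), against a background of 9.09%, and 6 were lower (the rows of TLR9 and IRF9, MAVS, TBK1, IKBKE and IFI35), against 16.8%. With the thresholds of the study, which ask for an unadjusted p under 0.05 together with a ratio of means that reaches 2 or falls to 0.5, no member was higher (2.1% of all rows) and TBK1 alone was lower (4.32%). The 3 libraries of a group all lay above those of the other for 3 members that were higher in GapC9 (TLR3, TICAM1 and IFIT3), against 12.6% of all rows, and for 6 that were lower (the rows of TLR9 and IRF9, MYD88, TBK1, IKBKE and IFI35), against 21.6%. In each of these counts the members' share was near that of the whole table or below it. The median log2 fold change, GapC9 over GapNC on the scale of FPKM + 0.1, was 0.01 over the members and -0.08 over all rows tested. After each library was scaled to the same median, those medians were 0.11 and 0.06, and the called rows of the whole table changed from 303 higher and 817 lower to 508 higher and 437 lower, while TBK1 was then the one member called.

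**Figure D1:**
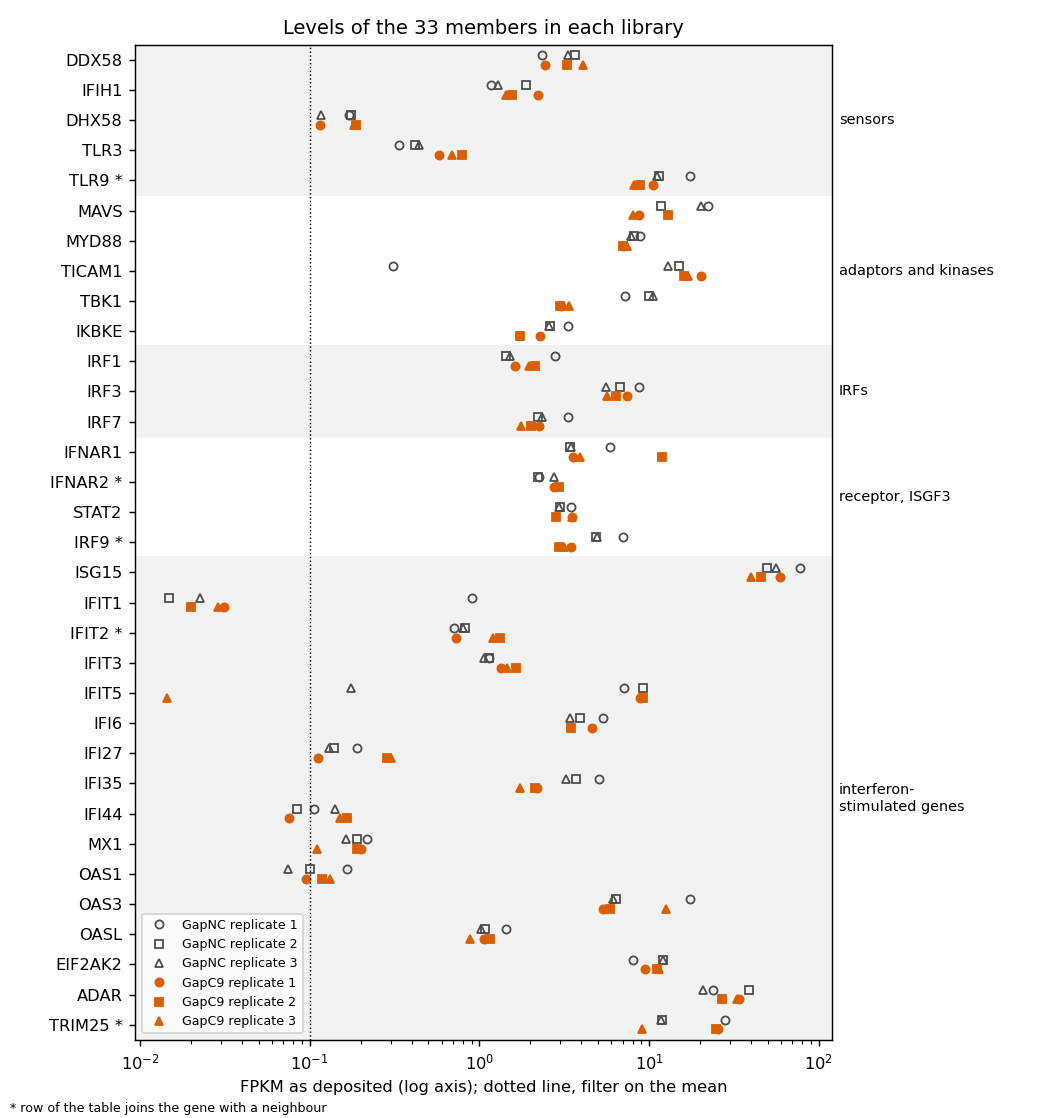
Level of each member in each library, in FPKM on a log axis, grouped by role; open symbols are GapNC and filled symbols GapC9, with the replicate given by the shape. ISG15 lies at the right end, between 40.1 and 77.98 FPKM, and TICAM1, IFIT1 and IFIT5 each have a library or more far from the rest of their group.

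Among the cytosolic sensors, none of the RIG-I-like receptor genes separated the groups. DDX58, which encodes RIG-I, was at 2.35, 3.69 and 3.32 FPKM in GapNC replicates 1, 2 and 3 and at 2.44, 3.29 and 4.11 FPKM in GapC9. IFIH1, encoding MDA5, was at 1.17, 1.88 and 1.29 FPKM in GapNC and at 2.21, 1.56 and 1.43 FPKM in GapC9. DHX58 encodes LGP2, a relative that modulates both and has no signaling domain of its own. It stayed between 0.115 and 0.188 FPKM, an average of 0.158, so it was the lowest of the 5 sensors. The log2 fold changes of DDX58, IFIH1 and DHX58 were 0.06, 0.25 and 0.04, with 95% intervals of -0.55 to 0.68, -0.34 to 0.84 and -0.55 to 0.62.

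The endosomal sensor TLR3 was the sensor whose level was higher in every GapC9 library than in any control. Its values were 0.336, 0.419 and 0.443 FPKM in GapNC and 0.576, 0.790 and 0.695 FPKM in GapC9, so the groups did not overlap. The log2 fold change was 0.65 (SE 0.18), and the adjusted p in limma was 0.0914, short of the threshold. It passed, at 0.0442, when the GC trend of each library was removed, and lay between 0.0689 and 0.247 under the other 13 alternatives. One fragment on the longest TLR3 transcript would give 0.00706 FPKM, far less than any of these values.

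For TLR9, the DNA sensor, no value of its own could be given. Its row in the table joined TLR9 with AC097637.1 and TWF2, the gene of an actin-binding twinfilin that lies beside it on chromosome 3. The joined row was at 17.4, 11.5 and 11.1 FPKM in GapNC and at 10.5, 8.91 and 8.18 FPKM in GapC9, the highest level of the 5 sensor rows. GapC9 was lower without overlap, with a log2 fold change of -0.51 (SE 0.21) and an adjusted p of 0.19 in limma. How much of this signal came from TLR9 was not tested.

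TBK1 was the member with the largest difference that passed the test. The gene lies at chr12:64451880-64502108 on the plus strand (GRCh38, GENCODE 29) and encodes the serine/threonine kinase that phosphorylates IRF3. It was at 7.23, 10.0 and 10.5 FPKM in GapNC and at 3.04, 2.99 and 3.40 FPKM in GapC9. The highest GapC9 library was thus below the lowest control. The means were 9.27 ± 1.79 and 3.14 ± 0.22 FPKM (SD, n = 3), a ratio of 0.339. In bulk RNA, fewer cells with the transcript and less of it per cell cannot be told apart. The log2 fold change was -1.51 (SE 0.17, 95% interval -1.93 to -1.10), and the adjusted p in limma was 0.0166.

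The TBK1 transcript has a GC content of 36.7%, and GapNC replicate 1, the library with the strongest GC trend, had the lowest of the 3 control values. Without that library the log2 fold change was -1.68 (adjusted p = 0.0166), and with the GC trends removed it was -1.65 (adjusted p = 0.00248). Each of the 5 other fits that left out a library kept the direction and missed the threshold. The adjusted p was 0.0678 without GapNC replicate 2, 0.057 without GapNC replicate 3, and 0.0661, 0.0828 and 0.0702 without GapC9 replicates 1, 2 and 3. In those 5 fits between 32 and 122 rows of the whole table were called, against 1120 with all libraries. An antisense RNA, AC135279.3, overlaps TBK1 on the opposite strand and was at 0.109 FPKM or less, and whether the strand was used in counting is not given in the sources used here.

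The other kinase of the pair and the adaptors gave no adjusted call. IKBKE, encoding IKKε, was at 3.33, 2.61 and 2.58 FPKM in GapNC and at 2.28, 1.75 and 1.75 FPKM in GapC9. All GapC9 values were lower than all controls, with a log2 fold change of -0.54 (SE 0.17, adjusted p in limma 0.117). MAVS, the mitochondrial adaptor, was at 22.3, 11.8 and 20.2 FPKM in GapNC and at 8.73, 12.95 and 8.09 FPKM in GapC9. Here GapC9 replicate 2 lay above GapNC replicate 2, and the log2 fold change was -0.84 (SE 0.30, adjusted p 0.15).

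MYD88, the adaptor of most Toll-like receptors, was at 8.81, 8.20 and 7.81 FPKM in GapNC and at 7.00, 7.04 and 7.37 FPKM in GapC9. This narrow difference did not overlap, at a log2 fold change of -0.21 (SE 0.10, adjusted p in limma 0.241). TICAM1, the adaptor of TLR3, was at 0.311, 15.1 and 12.95 FPKM in GapNC and at 20.2, 16.04 and 17.1 FPKM in GapC9. GapNC replicate 1 alone set the size of its log2 fold change, which was 2.04 (SE 1.39, adjusted p 0.407) with all libraries and 0.34 without that library (adjusted p 0.22). The lower value in GapNC replicate 1 would correspond to 18.9 fragments, against 845 to 1240 fragments in the other libraries.

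**Figure D2:**
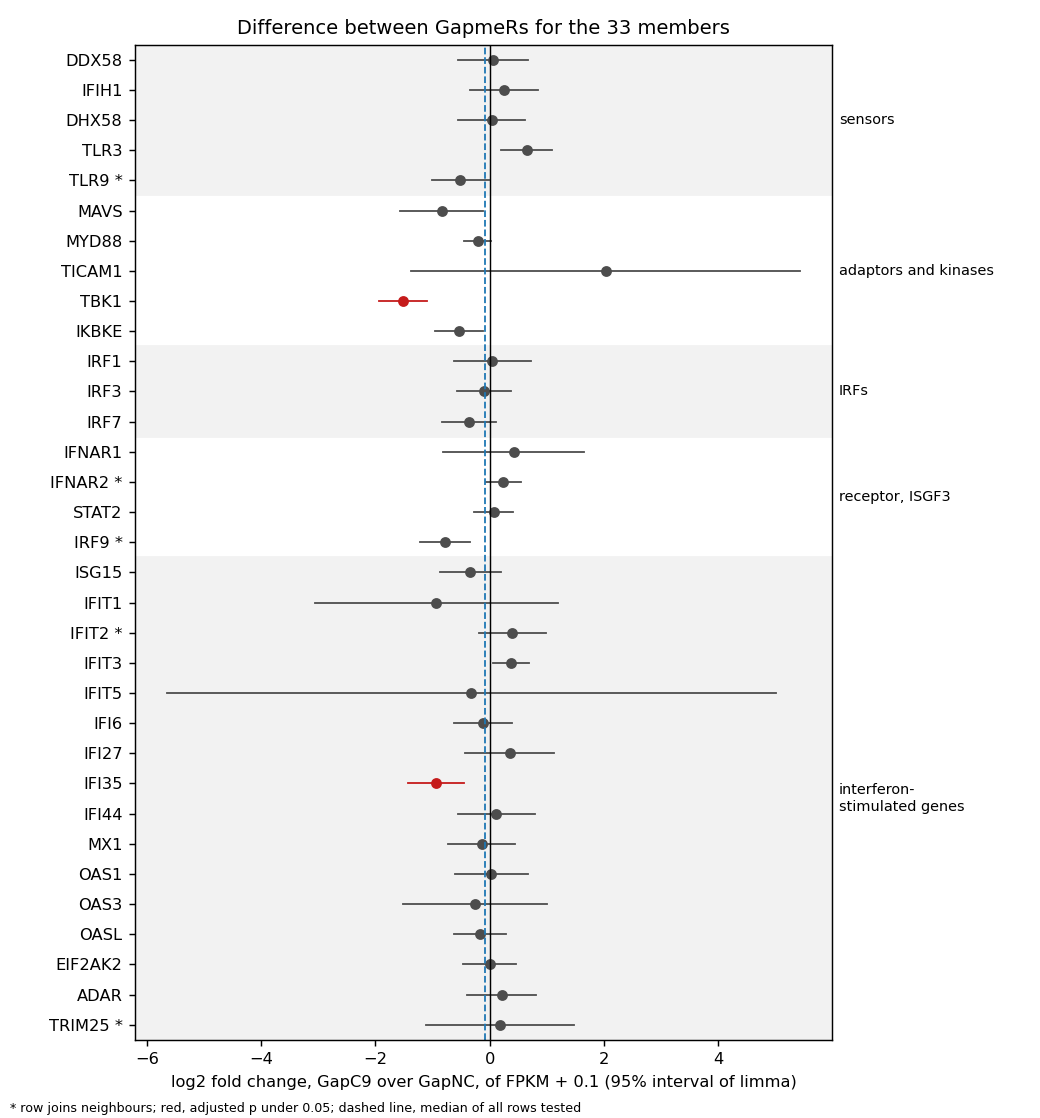
Log2 fold change of each member, GapC9 over GapNC, from limma on log2(FPKM + 0.1), with its 95% interval; red marks an adjusted p under 0.05 and the dashed line the median of all rows tested, -0.08. TBK1 at -1.51 and IFI35 at -0.94 are the members in red, and the intervals of TICAM1 and IFIT5 are the widest.

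TBK1 works in complexes with scaffold proteins, and these were read from the same fit, beside IKBKG. IKBKG, which encodes NEMO, the scaffold of the IKK complex, fell from 4.94, 4.03 and 4.58 FPKM in GapNC to 2.59, 2.91 and 2.45 FPKM in GapC9. Its log2 fold change was -0.75 (SE 0.13), with an adjusted p in limma of 0.0332 that rose to between 0.0581 and 0.116 when a library was left out and to 0.0806 with the GC trends removed. IKBKG also missed the threshold after median scaling (0.0529) or quantile normalization (0.0534) and without the filter (0.0528), and passed in 4 of 15 alternatives. The IKBKG locus has a partial pseudogene copy, so its reads may be split between the copies and its value is less certain. TANK, an adaptor that holds TBK1 and IKKε, was at 3.66, 5.68 and 4.92 FPKM in GapNC and 7.64, 8.65 and 8.40 FPKM in GapC9. All 3 values in GapC9 were above the controls, but the adjusted p of its log2 fold change of 0.80 (SE 0.18) was 0.0546. TANK passed in 3 of 15 alternatives: with the GC trends removed (adjusted p 0.0147), with the filter at 1 FPKM (0.0423) and after median scaling (0.0478). Its highest adjusted p among them was 0.175.

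The remaining scaffolds of TBK1 differed less. AZI2, also called NAP1, was at 3.52, 3.49 and 3.42 FPKM in GapNC and at 4.57, 4.39 and 4.45 FPKM in GapC9, without overlap (log2 fold change 0.35, SE 0.10, adjusted p in limma 0.0833). AZI2 passed in 2 of 15 alternatives, after median scaling (adjusted p 0.0438) and quantile normalization (0.0482). With the GC trends removed its log2 fold change was 0.27 (adjusted p 0.191), and its highest adjusted p was 0.212. TBKBP1, or SINTBAD, was at 3.48, 2.34 and 2.28 FPKM in GapNC and at 1.83, 2.27 and 2.42 FPKM in GapC9, with overlap (log2 fold change -0.28, SE 0.21, adjusted p 0.448).

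**Figure D3:**
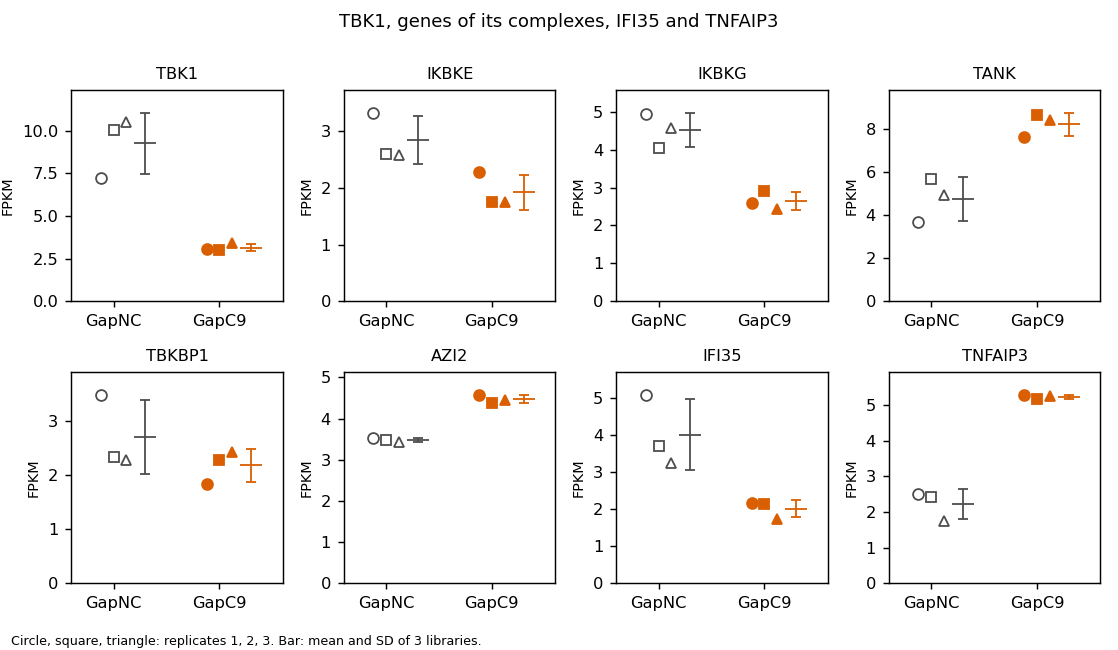
FPKM of TBK1, IKBKE, IKBKG, TANK, TBKBP1, AZI2, IFI35 and TNFAIP3 in each library, by group, with the mean and SD of 3 libraries beside the points; each panel starts at 0 and has its own scale. GapC9 is below GapNC without overlap for TBK1, IKBKE, IKBKG and IFI35, above it for TANK, AZI2 and TNFAIP3, and overlaps it for TBKBP1.

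The 3 interferon regulatory factors downstream of TBK1 or induced by interferon did not pass the test. IRF3, the substrate of TBK1 and the most abundant of them, was at 8.71, 6.73 and 5.62 FPKM in GapNC and at 7.42, 6.42 and 5.67 FPKM in GapC9. The groups overlapped, and the 95% interval of its log2 fold change of -0.09 ran from -0.57 to 0.38. IRF7, which amplifies the response, had means of 2.62 ± 0.6 and 2.002 ± 0.243 FPKM (SD, n = 3; log2 fold change -0.36, adjusted p in limma 0.297). IRF1, an interferon-induced factor, had means of 1.91 ± 0.758 and 1.90 ± 0.246 FPKM (log2 fold change 0.05, adjusted p 0.932).

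IFNAR1, a subunit of the receptor for type I interferon, was at 5.86, 3.41 and 3.45 FPKM in GapNC and at 3.58, 11.9 and 3.92 FPKM in GapC9. GapC9 replicate 2 stood above all others, and without it the log2 fold change of 0.42 (SE 0.50) became -0.13. The row of IFNAR2 joined it with AP000295.1 and IL10RB, the neighboring subunit of the receptors for interleukin 10 and interferon lambda. It was at 2.25, 2.23 and 2.74 FPKM in GapNC and at 2.74, 2.95 and 2.86 FPKM in GapC9, with an adjusted p of 0.29 in limma for a log2 fold change of 0.24.

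Of the ISGF3 subunits, STAT2 was at 3.45, 2.99 and 2.95 FPKM in GapNC and at 3.53, 2.82 and 3.51 FPKM in GapC9, with a log2 fold change of 0.07 (95% interval -0.28 to 0.41). IRF9 had no row of its own. Its row joined RNF31, which encodes the catalytic subunit of the linear ubiquitin ligase, with AL136295.5 and IRF9, and was at 7.06, 4.90 and 4.95 FPKM in GapNC and at 3.46, 2.97 and 3.17 FPKM in GapC9. GapC9 was lower in all libraries, with a log2 fold change of -0.78 (SE 0.17) and an adjusted p of 0.0546 in limma. The row passed in 2 of 15 alternatives, when rows under a mean of 1 FPKM were left out (adjusted p 0.0414) and with the GC trends removed (0.0171). Its highest adjusted p among them was 0.176. Which of the joined genes gave the difference was not tested. JAK1, a kinase bound to the receptor, was at 10.1, 14.1 and 13.6 FPKM in GapNC and at 6.19, 8.20 and 6.66 FPKM in GapC9, without overlap (log2 fold change -0.83, SE 0.18, adjusted p in limma 0.0505). JAK1 passed in 2 of 15 alternatives, without GapNC replicate 1 (adjusted p 0.0398) and with the filter at 1 FPKM (0.0406). Its highest adjusted p among them was 0.155.

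The 16 interferon-stimulated genes were spread from 0.114 to 54.8 FPKM in their mean over 6 libraries. Of them 8 had a log2 fold change above 0 and 8 below, and their median was -0.06, against -0.08 over all rows tested. At the adjusted threshold in limma 0 of the 16 were higher, against 1.89% of all rows, and 1 (6.25%), IFI35, was lower, against 5.1%. At an unadjusted p under 0.05, 1 was higher (6.25%, IFIT3), against 9.09%, and 1 was lower (6.25%, IFI35), against 16.8%. The summed level of the class was 178, 139 and 117 FPKM in GapNC and 152, 134 and 116 FPKM in GapC9, with overlap. Most of this sum came from ISG15, ADAR and the row of TRIM25, joined with MIR3614. Their means over 6 libraries were 54.8, 29.5 and 18.5 FPKM, so the sum says little about the other genes of the class.

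IFI35 encodes an interferon-induced leucine zipper protein and lies at chr17:43006725-43014456 on the plus strand (GRCh38, GENCODE 29). It was at 5.09, 3.71 and 3.24 FPKM in GapNC and at 2.18, 2.14 and 1.75 FPKM in GapC9. All GapC9 libraries were below the controls, the means being 4.02 ± 0.96 and 2.02 ± 0.24 FPKM (SD, n = 3), a ratio of 0.504. The log2 fold change was -0.94 (SE 0.20), and the adjusted p in limma was 0.0481, just within the threshold. GapNC replicate 1 had the highest value, and IFI35 has a GC content of 57.8%. Without that library the log2 fold change was -0.76 (adjusted p = 0.0634), and with the GC trends removed it was -0.72 (adjusted p = 0.0182). The adjusted p without GapNC replicates 2 and 3 was 0.118 and 0.0755, and without GapC9 replicates 1, 2 and 3 it was 0.115, 0.141 and 0.15. IFI35 thus passed with all libraries and in none of the 6 fits that left out 1, and it also missed the threshold with a pseudocount of 1, without the filter, without the variance trend and after median scaling or quantile normalization.

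ISG15, the ubiquitin-like protein that is conjugated to other proteins during the interferon response, was the most abundant member. Its values were 77.98, 49.7 and 56.2 FPKM in GapNC and 59.0, 45.6 and 40.1 FPKM in GapC9. The groups overlapped, with means of 61.3 ± 14.8 and 48.3 ± 9.73 FPKM (SD, n = 3). The log2 fold change was -0.34 (SE 0.22), with an adjusted p of 0.384 in limma. IFI6, an interferon-induced membrane protein whose gene has 2 response element matches in the stretch printed above, ranged from 3.42 to 5.38 FPKM in GapNC and from 3.47 to 4.61 FPKM in GapC9.

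The IFIT genes, which encode tetratricopeptide proteins that bind foreign RNA, lie together on chromosome 10, and none of the 4 passed the adjusted test. IFIT3 was at 1.14, 1.14 and 1.07 FPKM in GapNC and at 1.34, 1.64 and 1.45 FPKM in GapC9, higher in all 3 libraries. Its log2 fold change was 0.37 (SE 0.13), and the adjusted p in limma was 0.141. IFIT2, in a row joined with AL353751.1, was at 0.709, 0.827 and 0.797 FPKM in GapNC and at 0.729, 1.33 and 1.21 FPKM in GapC9, where GapC9 replicate 1 lay within the control range (log2 fold change 0.40, SE 0.24, adjusted p 0.34).

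IFIT5 and IFIT1 had single libraries far from the others. IFIT5 was at 7.11, 9.25 and 0.175 FPKM in GapNC and at 8.87, 9.28 and 0.0144 FPKM in GapC9, so replicate 3 was low in both groups. Those low values would correspond to 17.1 and 1.37 fragments on the single annotated transcript, against 650 to 901 fragments in the other 4 libraries. IFIT1 was at 0.902, 0.0149 and 0.0227 FPKM in GapNC and at 0.0312, 0.0201 and 0.0288 FPKM in GapC9, so GapNC replicate 1 alone was above the filter level of 0.1 FPKM. The log2 fold changes were -0.32 (SE 2.18) for IFIT5 and -0.93 (SE 0.87) for IFIT1. Without GapNC replicate 1 that of IFIT1 was 0.09, and leaving out 1 library moved that of IFIT5 between -1.95 and 1.79.

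Uneven replicates were also seen in OAS3, TRIM25 and IFNAR1. OAS3, an oligoadenylate synthetase activated by double-stranded RNA, was at 17.5, 6.36 and 6.15 FPKM in GapNC and at 5.33, 5.91 and 12.5 FPKM in GapC9. TRIM25, the ubiquitin ligase that acts on RIG-I, shares its row with MIR3614 and was at 28.2, 12 and 11.7 FPKM in GapNC and at 25.4, 24.9 and 9.05 FPKM in GapC9. Neither pattern followed the groups. The highest and lowest replicate of a group differed by more than 10-fold for 3 members (TICAM1, IFIT1 and IFIT5), or 9.09%. Rows with such a difference or with no signal in a library made up 10% of all rows tested. They made up 3.6% of rows with a mean of at least 1 FPKM, a level that IFIT1, with a mean of 0.17 FPKM, did not reach.

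**Figure D4:**
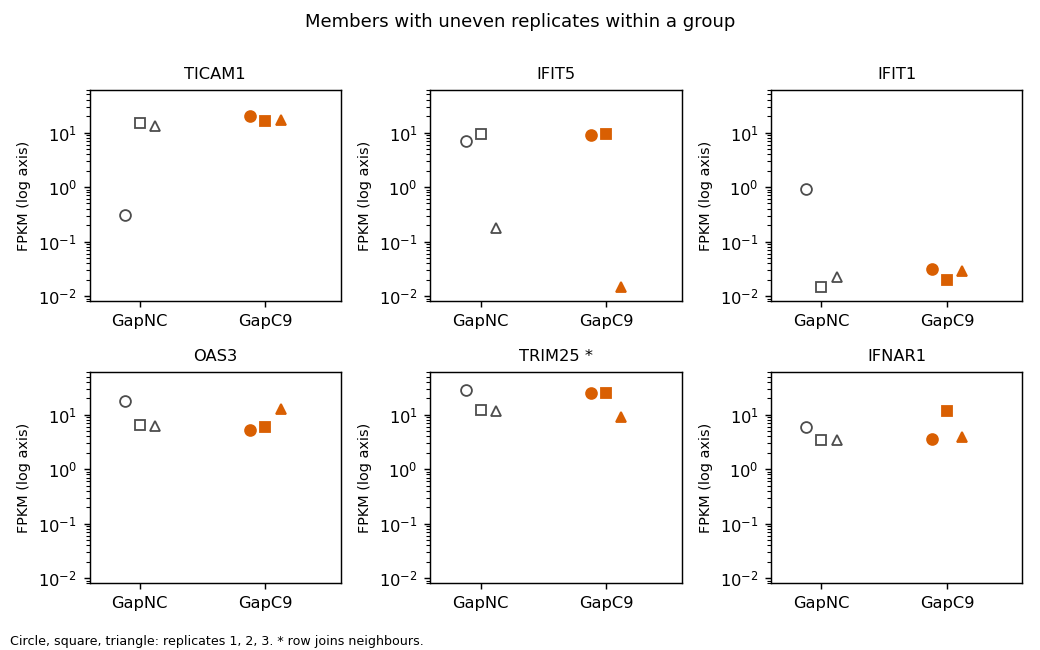
FPKM of TICAM1, IFIT5, IFIT1, OAS3, TRIM25 and IFNAR1 in each library on a log axis, by group, with the replicate given by the shape. TICAM1 is low in GapNC replicate 1 (0.311 FPKM), IFIT5 in replicate 3 of both groups, and IFIT1 is high in GapNC replicate 1 (0.902 FPKM).

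Several genes that respond most strongly to interferon in many cells were near the lower limit in both groups. IFI27 was at 0.131 to 0.19 FPKM in GapNC and at 0.112 to 0.303 FPKM in GapC9. MX1, a dynamin-like GTPase that blocks viruses, was at 0.163 to 0.218 FPKM and 0.110 to 0.1999 FPKM, and IFI44 at 0.084 to 0.141 FPKM and 0.0758 to 0.166 FPKM. OAS1, another oligoadenylate synthetase, was at 0.0746 to 0.165 FPKM in GapNC and 0.0947 to 0.132 FPKM in GapC9. One fragment on the longest transcript would give 0.0174 FPKM for IFI27, 0.0122 for MX1, 0.0252 for IFI44 and 0.0176 for OAS1, so these values rest on few fragments. The groups overlapped for each of these genes, and none passed the adjusted test. In all, 6 of the 16 interferon-stimulated members (37.5%) had a mean under 1 FPKM, against 36.2% of all rows tested. The summed level of those 6 was 2.29, 1.36 and 1.33 FPKM in GapNC and 1.24, 2.11 and 1.93 FPKM in GapC9, and without IFIT1 it was 1.39, 1.34 and 1.31 FPKM against 1.21, 2.09 and 1.90 FPKM. The largest part of the latter sums was the row of IFIT2, joined with AL353751.1, at 0.709, 0.827 and 0.797 FPKM in GapNC and 0.729, 1.33 and 1.21 FPKM in GapC9.

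ADAR and EIF2AK2 were among the more abundant interferon-stimulated members, and both overlapped between the groups. ADAR, which edits adenosine in double-stranded RNA, was at 23.7, 38.8 and 20.9 FPKM in GapNC and at 33.7, 26.9 and 33.2 FPKM in GapC9. EIF2AK2 encodes PKR, the kinase that halts translation on double-stranded RNA, and had means of 10.8 ± 2.34 and 10.7 ± 1.05 FPKM (SD, n = 3). The log2 fold change of EIF2AK2 was 0.01 (95% interval -0.46 to 0.47), and that of ADAR 0.22 (-0.39 to 0.82). OASL, a relative of the OAS enzymes without their activity, ranged from 1.02 to 1.44 FPKM in GapNC and from 0.881 to 1.15 FPKM in GapC9.

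The other genes of these pathways, 96 in all and listed by role, were read from the same fit. Of them 85 were in the table and 69 were tested, in 68 rows, 1 of which is the row that IL10RB shares with IFNAR2. In limma 2 of the 68 rows were higher at the adjusted threshold (2.94%, TNFAIP3 and PARP9), against 1.89% of all rows, and 1 was lower (1.47%, IKBKG), against 5.1%. The median log2 fold change was 0.10 over the 68 rows and -0.08 over all rows tested. At an unadjusted p under 0.05, 10 rows were higher (14.7%), against 9.09% of all rows, and 7 were lower (10.3%), against 16.8%. In the class of 27 other rows of interferon-stimulated genes these were 6 higher, among them HERC5, SAMD9, PARP9 and SP100, and 1 lower (IFITM3).

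TNFAIP3, a ubiquitin-editing enzyme that restrains NF-κB and sensor signaling, rose from 2.51, 2.41 and 1.74 FPKM in GapNC to 5.27, 5.16 and 5.24 FPKM in GapC9. The ratio was 2.35 and the log2 fold change 1.22 (SE 0.16, adjusted p in limma 0.021). Left-out libraries gave an adjusted p of 0.0331 without GapNC replicate 1, 0.0496 without GapNC replicate 3 and 0.0721 to 0.0978 without any of the other 4. PARP9, which pairs with DTX3L in interferon-treated cells, rose from 1.38, 1.55 and 1.55 FPKM to 2.31, 2.40 and 2.30 FPKM (log2 fold change 0.62, SE 0.11, adjusted p 0.0366). Its partner DTX3L had means of 6.65 and 7.01 FPKM, and the adjusted p of PARP9 was 0.0528 to 0.137 when a library was left out.

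Interferon genes themselves were at or near the lower limit. Of the 8 ligand genes listed, IFNE was the one above the filter, at 0.111 to 0.229 FPKM in GapNC and 0.147 to 0.165 FPKM in GapC9. IFNK, IFNL1 and IFNL3 did not exceed 0.0795 FPKM in any library, and IFNB1, IFNA1, IFNL2 and IFNG were not among the rows. For cytosolic DNA sensing, CGAS (listed as MB21D1) did not exceed 0.00971 FPKM, while its effector STING1 (listed as TMEM173) was at 7.92, 6.40 and 6.58 FPKM in GapNC and at 6.88, 6.32 and 6.12 FPKM in GapC9. Of the interferon-stimulated genes beyond the members, 12 of 40 in the table were below the filter, among them OAS2, MX2, IFI44L, RSAD2, CXCL10 and RTP4. The other 28 reached it, as did 16028 of the 27918 rows of the whole table, so these genes were not below it more often than rows in general.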

How the data were processed

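RNA-seq of HCT-116 cells gave 6 libraries, 3 GapNC and 3 GapC9, grouped by the transfection stated in their sample labels. The authors mapped reads with HISAT (HISAT2 2.0 in the submitters' processing notes), assembled transcripts with StringTie 1.3.0 and deposited FPKM values of 27918 rows, 1063 of which join several genes. The notes also list Bowtie 0.12.2 and a mouse build, although the gene identifiers are human, so the build is not given in the sources used here. No counts were given, so edgeR, which the authors used, was not run. FPKM is relative to the mapped total of a library, so abundant RNAs shift all other values, and an assembly can place reads of neighbors in 1 row.

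In R 4.3.3, limma 3.58.1 (lmFit, eBayes with trend, two-sided) was fitted to log2(FPKM + 0.1) of the 16028 rows whose mean reached 0.1 FPKM, with group as the one term and Benjamini-Hochberg adjustment over all of them. It was tested on simulated data first. The simulated noise was independent between libraries, without a GC trend or an outlying library, so that test does not cover these features of the data. Alternatives were pseudocounts of 0.01 and 1, a filter at 1 FPKM or none, median scaling, quantile normalization, no trend, a GC correction (lowess, span 0.3), the replicate number as a block, and each library left out. Python 3.11.15 with pandas 2.3.3 was used for tables, motif searches and figures. Transcript GC content, length and gene positions came from GENCODE 29.

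The members and lists were chosen with earlier results of these data known. Values of every library were given for members that passed a threshold, led their class in level or were receptor or ISGF3 subunits, and other pathway genes were named where they passed. DDX58, IFIH1, TLR3, TICAM1, IKBKE, MYD88, IFIT1, IFIT2, IFIT3, IFIT5, OAS3, TRIM25, ADAR and, outside the members, TANK, AZI2, TBKBP1, JAK1, STING1 and those named from unadjusted counts or as near the lower limit were added after their values were seen.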

Additional observations from a re-analysis of the deposited data

How the results depend on the processing

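Rows under about 0.2 FPKM rest on few fragments. The fits that left out a library had fewer samples and called between 32 and 810 rows of the whole table, against 1120 with all libraries. TBK1 kept its direction in all 15 alternatives (log2 fold change -1.68 to -1.30) and passed in 9, with an adjusted p from 0.00248 to 0.0828. IFI35 kept its direction in all 15 (-1.07 to -0.72) and passed in 3 (0.0182 to 0.15). The correlations of deviations were 0.097, 0.0398 and 0.0243 between same-numbered libraries, and -0.093 to 0.0578 between differently numbered ones. These values do not settle whether the replicate numbers pair the libraries. With the replicate block no row of the table passed, so the count of lower members was 0 (TBK1 at an adjusted p of 0.0608), as were both counts of other pathway rows.

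The count of lower members at the adjusted threshold was 2 with all libraries. It was 3 (TBK1, IFI35 and the row of IRF9) with the GC correction and with the filter at 1 FPKM, 2 with a pseudocount of 0.01, 1 with a pseudocount of 1, without the filter, without the trend, and after median scaling or quantile normalization, and 0 to 1 with a library left out. The GC correction gave 1 higher member, TLR3. By ratio and unadjusted p, leaving out a library gave 1 to 3 lower members, the added ones being IFI35 and MAVS. For the other pathway rows, higher calls numbered 2 with all libraries, 11 with the GC correction, 6 with median scaling, 4 with quantile normalization, 1 without the filter, and 0 to 1 with a library left out, while those of the whole table numbered 303, 1055, 508, 347, 146 and 16 to 240. Lower calls numbered 1, then 2 with the filter at 1 FPKM, 0 with the GC correction, median scaling, quantile normalization or no filter, and 0 to 1 with a library left out, while those of the whole table numbered 817, 890, 1233, 437, 516, 346 and 16 to 570. The cause was not tested.

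Directions turned only for genes without a call. With the GC correction the log2 fold change was -0.02 for DDX58, -0.07 for EIF2AK2, 0.07 for IFI6, 0.18 for IRF3, 0.02 for IRF7 and 0.03 for TBKBP1. Median scaling gave 0.03 for IFI6 and 0.05 for IRF3, and quantile normalization 0.0017 and 0.01. A pseudocount of 1 gave 0.03 for IFIT5. With a library left out, the range was -0.12 to 0.25 for DDX58, -0.07 to 0.17 for DHX58, -0.11 to 0.34 for IRF1, -0.24 to 0.07 for IRF3, -0.13 to 0.72 for IFNAR1, -1.47 to 0.09 for IFIT1, -1.95 to 1.79 for IFIT5, -0.26 to 0.06 for IFI6, -0.23 to 0.03 for MX1, -0.10 to 0.20 for OAS1, -0.64 to 0.23 for OAS3, -0.19 to 0.11 for EIF2AK2 and -0.08 to 0.66 for TRIM25.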
